A study of Mus musculus with 72 samples.

Results

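Macrophages were followed through 10 genes that mark them or that they express strongly, chosen by name: Csf1r, Adgre1, Mrc1, Cd68, Lyz2, Ptprc, Cd74, C1qa, C1qb and C1qc. They are 10 of the 25239 genes in the count table of E18.5 testes and of the 35976 genes in each of the other 6 tables. All mice descended from CF-1 females and from SJL/B6 males heterozygous for a GFP transgene. F1 naturals came from natural mating without embryo transfer, whereas F1 IVF mice came from eggs of superovulated CF-1 females, culture to the blastocyst stage and nonsurgical transfer to CF-1 recipients. RNA-Seq was done on F1 testes at E18.5 (4 naturals, 6 IVF), 12 weeks (5 naturals, 5 IVF) and 39 weeks (4 naturals, 6 IVF). The F2 mice, offspring of 12-week-old natural or IVF males and wild-type CF-1 females, were not themselves conceived by IVF, and "IVF" names their father's conception. Their 12-week testes (5 naturals, 7 IVF), ovaries (4 and 5), male livers (5 and 5) and female livers (5 and 6) were sequenced. F1 IVF mice therefore differ from F1 naturals by superovulation, fertilization in vitro, culture and transfer together, and F2 IVF mice differ by these steps in their fathers' conception. For the adult F1 cohorts, pups of both groups were delivered by C-section and fostered, the IVF pups at a later time than naturals. For adult F1 males the methods describe both seminiferous tubules frozen from a testis and RNA from a testis cross section, and these hold different amounts of the interstitium where most testicular macrophages lie.

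Macrophages depend on the receptor Csf1r, which binds the growth factors CSF1 and IL-34, and they take up dying cells and debris. In the testis they lie between the tubules beside Leydig cells, in the ovary they clear dying follicle cells and the regressing corpus luteum, and in the liver they line the sinusoids as Kupffer cells. Among the other members, Adgre1 encodes the surface receptor F4/80, Mrc1 the mannose receptor, Cd68 a lysosomal membrane protein and Lyz2 a lysozyme. Ptprc encodes CD45, found on all white blood cells, and Cd74 encodes the invariant chain that guides MHC class II molecules. C1qa, C1qb and C1qc encode the A, B and C chains of C1q, which starts the classical complement pathway. Cd74 is also expressed by B cells and dendritic cells, Mrc1 and Csf1r are not confined to macrophages either, and Lyz2 lies beside its near-identical copy Lyz1, so its counts are less certain.

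The C1q genes stand side by side on chromosome 4 of mm10, all on the minus strand: C1qb at 136880126-136886200, C1qc at 136889801-136892936 and C1qa at 136895916-136898844. The transcripts of the members differ in base composition, from 42.7% G and C in Ptprc and 43.4% in Mrc1 to 57.4% in C1qb, 57.5% in C1qc and 59.5% in C1qa. Because differences in liver moved with this property, below are coding windows of 120 bases, read from the mm10 genome on the strand of the gene, with G and C in capitals. They lie at chr4:136897718-136897837 for C1qa (exon 2 of 3), chr4:136880618-136880737 for C1qb (exon 3 of 3), chr4:136890327-136890446 for C1qc (exon 3 of 3), chr2:14238241-14238360 for Mrc1 (exon 2 of 30, plus strand) and chr1:138107778-138107897 for Ptprc (exon 12 of 33, minus strand). The windows hold 59.2%, 57.5%, 57.5%, 43.3% and 42.5% G and C, close to the whole transcripts.
C1qa: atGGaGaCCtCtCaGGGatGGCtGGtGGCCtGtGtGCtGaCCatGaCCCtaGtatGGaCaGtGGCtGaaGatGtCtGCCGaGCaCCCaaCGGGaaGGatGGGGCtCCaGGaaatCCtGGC
C1qb: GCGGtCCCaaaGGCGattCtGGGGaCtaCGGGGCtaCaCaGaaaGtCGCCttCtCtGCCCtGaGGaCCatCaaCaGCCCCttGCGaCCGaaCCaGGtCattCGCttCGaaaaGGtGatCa
C1qc: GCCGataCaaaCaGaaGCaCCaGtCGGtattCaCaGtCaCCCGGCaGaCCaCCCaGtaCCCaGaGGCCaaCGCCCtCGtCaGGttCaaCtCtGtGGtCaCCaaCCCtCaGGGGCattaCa
Mrc1: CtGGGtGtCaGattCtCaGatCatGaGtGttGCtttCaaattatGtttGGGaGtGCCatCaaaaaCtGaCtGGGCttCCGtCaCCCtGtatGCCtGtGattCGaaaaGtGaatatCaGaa
Ptprc: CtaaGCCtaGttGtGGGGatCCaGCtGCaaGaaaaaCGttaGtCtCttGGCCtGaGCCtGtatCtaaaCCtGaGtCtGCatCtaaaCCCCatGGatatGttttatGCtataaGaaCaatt

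In the upstream 250 bases of RefSeq promoters (GRCm38.p6, the assembly of mm10), the core of the PU box, the element bound by the myeloid factor PU.1, was searched as GAGGAA or, on the other strand, TTCCTC. It occurred in 7639 of 32851 promoters (23.3%). Of the 6 members with a promoter entry that were searched, 5 held it: C1qb, C1qc, Cd68, Mrc1, with 3 matches, and Ptprc, in 1 of its entries, but not Lyz2. A match is a description of the letters and not a site of binding. The promoters of C1qb (chr4:136886201-136886450, match starting at -30) and C1qc (chr4:136892915-136893164, match starting at -193) are given with the match in capitals, because C1qb was called with age in the testis and its neighbour C1qc was not.
C1qb promoter: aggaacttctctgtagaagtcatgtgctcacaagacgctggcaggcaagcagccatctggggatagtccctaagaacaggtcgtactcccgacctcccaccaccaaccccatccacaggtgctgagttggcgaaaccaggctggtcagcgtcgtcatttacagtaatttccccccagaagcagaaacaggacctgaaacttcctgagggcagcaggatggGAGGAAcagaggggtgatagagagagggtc
C1qc promoter: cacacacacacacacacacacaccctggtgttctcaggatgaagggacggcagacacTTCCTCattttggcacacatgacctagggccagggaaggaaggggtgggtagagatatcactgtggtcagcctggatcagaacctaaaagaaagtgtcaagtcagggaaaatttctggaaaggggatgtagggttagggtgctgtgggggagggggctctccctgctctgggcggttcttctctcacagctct

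The libraries held 543745 to 90441392 counts, with a median of 15995597. Depth moved with conception in 5 tables. Natural testes had at most 4869139 counts at E18.5 and 12705316 at 39 weeks, while IVF testes had at least 8500054 and 14033176. Male livers had 10391074 to 44069283 counts in naturals and 543745 to 12624673 in IVF, and female livers 3947645 to 34149676 and 13815244 to 90441392. Ovaries had 17372532 to 49192804 in naturals and 11489461 to 16553139 in IVF, so only the livers overlapped among these 5. Levels are given as CPM, counts scaled to library size with TMM factors within each table, and between genes as CPM per kilobase of transcript. A gene was called if its adjusted p was under 0.05 (edgeR's quasi-likelihood test, Benjamini-Hochberg over all genes tested) and its change exceeded 1.5-fold, or 0.585 on the log2 scale. Fewer macrophages and less RNA per macrophage cannot be told apart in bulk tissue. Of the other blood cells that carry Ptprc or Cd74, the summed markers of T cells were at 8.08 to 22.1 CPM in adult testes, 6.7 to 13.2 CPM in ovaries and at most 9.74 CPM in livers. Ptprc itself had means of only 0.8488 to 1.146 CPM in natural adult testes, so these sums do not measure T cell content. Which testis cells gave them was not tested, and sums of B cell and dendritic cell markers are not given here.

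All 10 members were detected in every natural group. Mean levels of 9 of them were highest in the ovary of F2 naturals, with Cd74 at 157.2 ± 31.08 CPM (SD, n = 4), Lyz2 at 57.09 ± 4.434 CPM, C1qa at 55.78 ± 8.901 CPM and Csf1r at 34.32 ± 9.899 CPM. Mrc1 was the exception, with 15.7 ± 5.348 CPM in ovary and its highest mean in female liver, 35.78 ± 13.36 CPM (SD, n = 5). The lowest means of Cd68, Csf1r, Ptprc, Lyz2, C1qa and C1qc were those of F2 testis, of Cd74, C1qb and Mrc1 those of E18.5 testis, and of Adgre1 that of 39-week testis. Between its extremes Cd74 spanned 54.7-fold and Ptprc 11.1-fold. Each table was scaled on its own, so these are orders of shares of libraries.

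Most groups that were neighbours in these orders overlapped. The ranges of Cd74 parted between ovary (114.6 to 189.2 CPM) and male liver (32.91 to 49.21 CPM), and again between female liver (22.28 to 46.14 CPM) and 39-week testis (2.746 to 12.25 CPM). C1qb parted between male liver (19.56 to 31.56 CPM) and 39-week testis (11.67 to 15.59 CPM), C1qc between female liver (8.743 to 32.57 CPM) and E18.5 testis (7.598 to 8.602 CPM), and Ptprc between male liver (2.002 to 5.207 CPM) and 39-week testis (0.7279 to 1.656 CPM). All other neighbours overlapped, including every pair of adult testis groups, for each of the 10 genes.

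**Figure D1:**
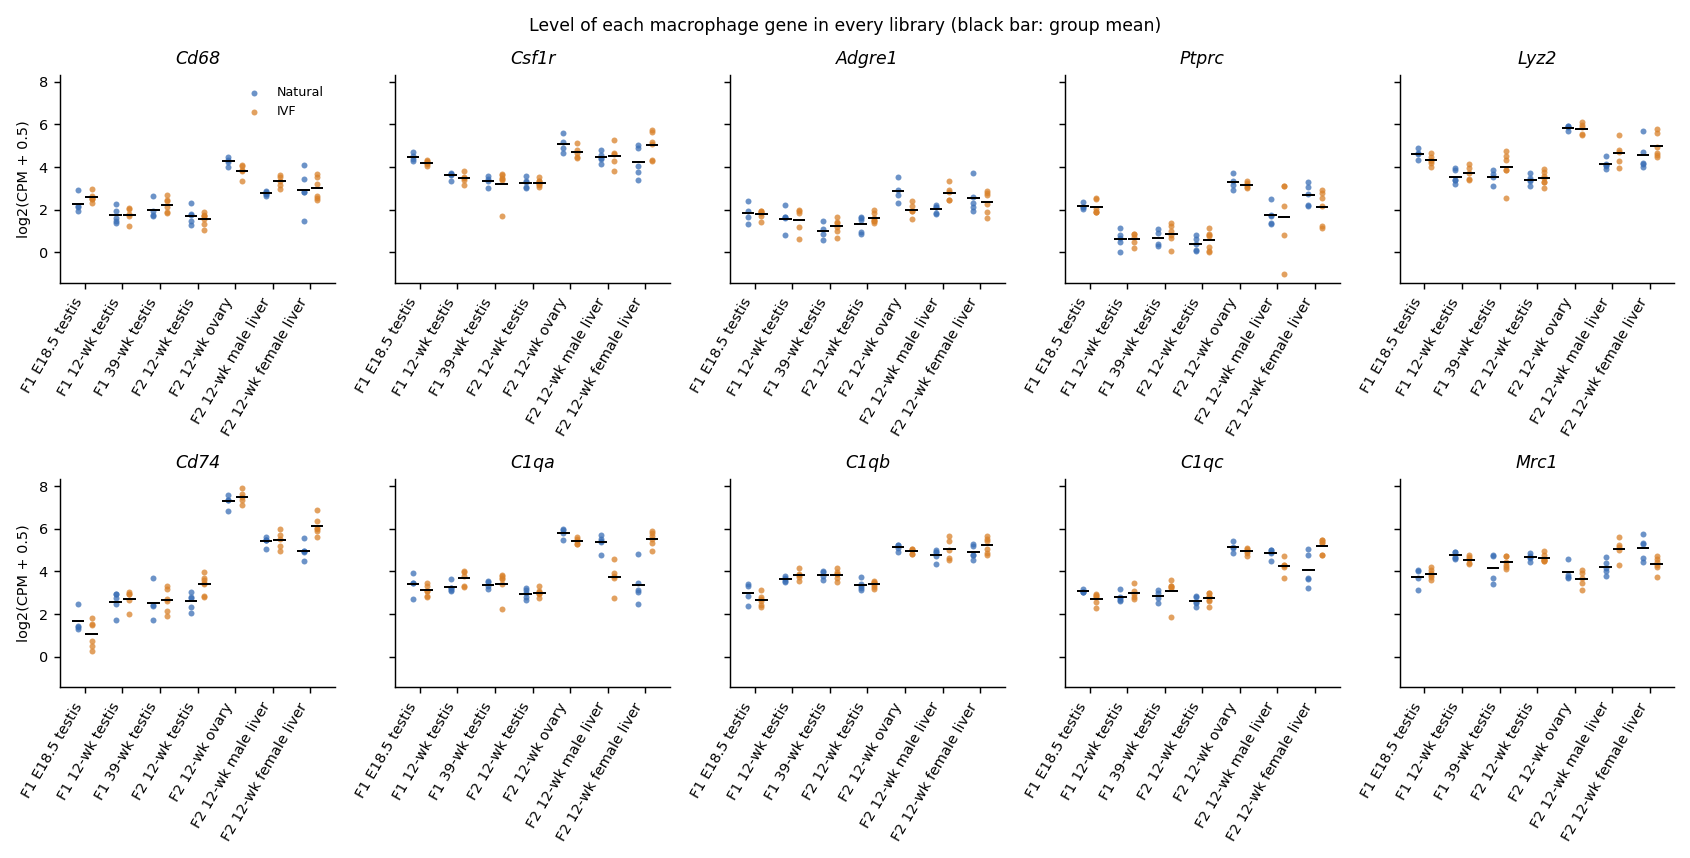
Levels of the 10 members in all libraries, in CPM on a log axis, with 1 panel a gene, 1 column a tissue and age, naturals and IVF side by side and 1 point a library. Natural ovaries stand highest for 9 genes, from 7.255 CPM for Adgre1 to 157.2 CPM for Cd74, while Mrc1 has its highest natural mean in female liver at 35.78 CPM.

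Per kilobase, the leading member changed with tissue and age. Lyz2 led in natural E18.5 testes at 18.62 ± 3.035 CPM per kilobase (SD, n = 4), before C1qa at 10.03 ± 3.43. In adult testes C1qb led, at 11.05 ± 0.886 at 12 weeks, 12.84 ± 1.691 at 39 weeks and 9.107 ± 1.708 in F2, with C1qa and Lyz2 in the next 2 places. Cd74 led in ovary at 111.5 ± 22.06, C1qa in male liver at 39.81 ± 8.558 and C1qb in female liver at 27.76 ± 6.071 CPM per kilobase. Adgre1 and Ptprc were the lowest pair in each of the 7 natural groups, with Ptprc at 0.1673 ± 0.05831 CPM per kilobase in F2 testis.

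From E18.5 to 12 weeks, in naturals, Mrc1, C1qb, Cd74 and C1qa rose relative to other testis genes and Ptprc fell. Mrc1 was at 15.67, 12.49, 16.43 and 8.307 CPM in the E18.5 testes and at 24.33, 29.84, 29.64, 23.78 and 25.35 CPM at 12 weeks. Every 12-week library lay above every fetal one, a log2 fold change of 1.79 ± 0.18 (SE, adjusted p = 7.07e-08). The fits between tables used TMM factors set jointly over both, so a fold change differs from the ratio of the levels, and on library totals Mrc1 rose by 1.04. C1qb was at 9.497, 10.24, 6.75 and 4.652 CPM in E18.5 testes and at 12.49, 11.16, 10.99, 12.14 and 13.32 CPM at 12 weeks. Again the groups did not overlap, with a log2 fold change of 1.40 ± 0.22 (adjusted p = 1.42e-05).

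The estimates of the neighbour genes of the C1q complex were smaller, and the difference from C1qb was not tested. C1qa changed by 0.60 ± 0.23 (log2, adjusted p = 0.026), just past the fold limit, and lost its call in thinned counts (adjusted p = 0.112) and with the trend of GC content removed (0.39, adjusted p = 0.137). C1qc changed by 0.54 ± 0.21 (adjusted p = 0.0277), 1.45-fold and so not called, whereas DESeq2 (0.65, adjusted p = 0.00571) and the restriction to genes with 10 counts or more in every library (0.69, adjusted p = 0.00481) called it. Cd74 was at 2.137, 5.12, 2.25 and 1.994 CPM in E18.5 testes, 6 to 25 counts a library, and at 2.813, 7.119, 7.217, 6.178 and 4.996 CPM at 12 weeks. It rose by 1.73 ± 0.37 (log2, adjusted p = 3.54e-04), although the 12-week natural of 2.813 CPM overlapped the fetal range.

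Ptprc was the only member called lower at 12 weeks. It was at 3.799, 3.891, 3.6 and 4.652 CPM at E18.5 and at 1.086, 0.5049, 0.8942, 1.257 and 1.727 CPM at 12 weeks, with no overlap and a log2 fold change of -1.05 ± 0.40 (adjusted p = 0.0226). In all, 5 of 10 members were called (4 higher, 1 lower), in a comparison that called 77.4% of all genes tested, 41.7% higher and 35.7% lower. Without the fetal library E18.5 Natural 4, 3 were called. The median log2 fold change was 0.53 over the members and 0.15 over all genes.

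The direction of several members depended on the scaling of these very different tissues. Summed germ cell markers rose from 216-293 CPM in natural E18.5 testes to 9602-11286 CPM at 12 weeks, and Sertoli cell markers went from 1988-2721 to 146-174 CPM. On library totals without TMM the median of all genes was -0.60 in place of 0.15, Csf1r fell by 0.85 (adjusted p = 8.99e-05) and Lyz2 by 1.05 (adjusted p = 9.77e-05), and C1qa turned to -0.15. With TMM, Csf1r was at -0.10 ± 0.16 and Lyz2 at -0.29, neither called. With TMM and the trend of GC content removed both were called lower, Csf1r at -0.62 (adjusted p = 0.00187) and Lyz2 at -1.23 (adjusted p = 1.34e-05). The shift shows in the levels within each table, where Csf1r was at 25.88, 19.25, 20.25 and 22.59 CPM in E18.5 testes and at 9.526 to 12.79 CPM at 12 weeks. Mrc1, C1qb and Cd74 stayed positive on library totals, at 1.04, 0.65 and 0.98, and Ptprc stayed negative at -1.81. The E18.5 naturals also held up to 547 CPM of summed hepatocyte markers, in Natural 1, and 14 to 63.6 CPM of neutrophil markers, against at most 2.1 and 3.64 CPM at 12 weeks. Their part in these differences was not tested.

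Related genes of macrophages were divided over the same interval. The counts given are of called genes, in a comparison that called 77.4% of all genes, 41.7% higher and 35.7% lower. Of 6 genes of antigen presentation by MHC class II, which work with Cd74, 5 rose and 1 fell (median 2.24 against 0.15 for all genes). H2-DMa, a loading factor, rose by 2.63 ± 0.26 (log2, adjusted p = 6.62e-08) and H2-DMb1, its partner, by 2.81 ± 0.47 (adjusted p = 3.43e-05), while Ciita, the transactivator of the pathway, fell by 1.65 (adjusted p = 0.0157). Of 19 surface and phagocytic receptors, 6 rose and 6 fell (median -0.36). The low-affinity Fc receptor Fcgr3 rose by 4.57 ± 0.32 (adjusted p = 3.65e-09) and the scavenger receptor Msr1 by 3.40 ± 0.44 (adjusted p = 1.76e-06). Axl, a receptor for dying cells, fell by 2.57 (adjusted p = 2.46e-13) and the hyaluronan receptor Lyve1 by 5.38 (adjusted p = 4.05e-07).

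The next counts stand beside the same shares of all genes, 41.7% called higher and 35.7% lower. Of 10 lysosomal genes 8 fell and 1 rose (median -1.19), with Lamp2 at -2.25 ± 0.10 (adjusted p = 7.43e-13), Ctsz at -2.95 ± 0.14 (adjusted p = 5.30e-12) and Lamp1 at 1.17 ± 0.09 (adjusted p = 1.34e-09). Of 8 myeloid regulators 4 fell and none rose (median -0.57), led by Maf at -3.36 (adjusted p = 1.46e-12) and Cebpb at -2.39 (adjusted p = 5.77e-09), transcription factors of macrophages that other testis cells also express. Of 8 complement genes 3 rose and 3 fell. Cfb, of the alternative pathway, was at 1.40 (adjusted p = 9.52e-04), C2 at 1.02 (adjusted p = 0.00157), C3 at -2.92 (adjusted p = 2.50e-04) and the receptor C5ar1 at -2.12 (adjusted p = 0.0032).

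From 12 to 39 weeks none of the 10 members was called in natural testes, in a comparison that called 0.00499% of all genes. No member reached an unadjusted p under 0.05, and DESeq2 called none of the 10 either. Adgre1, with -0.70 ± 0.37 (log2, adjusted p = 0.392), and Mrc1, with -0.45 (adjusted p = 0.418), had the largest estimates. The 39-week naturals were not alike in Mrc1, at 10.1, 12.36, 25.58 and 26.41 CPM. The libraries Natural 1 and 2, which gave the low values, were also much nearer to each other across all genes than to the others. Between F1 and F2 natural testes at 12 weeks, again none of the 10 was called by edgeR or DESeq2 (2.71% of all genes were called by edgeR), with Csf1r at -0.33 ± 0.13 (unadjusted p = 0.017, adjusted p = 0.106) as the only member under an unadjusted p of 0.05. Both comparisons and that with E18.5 share the 12-week naturals.

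**Figure D2:**
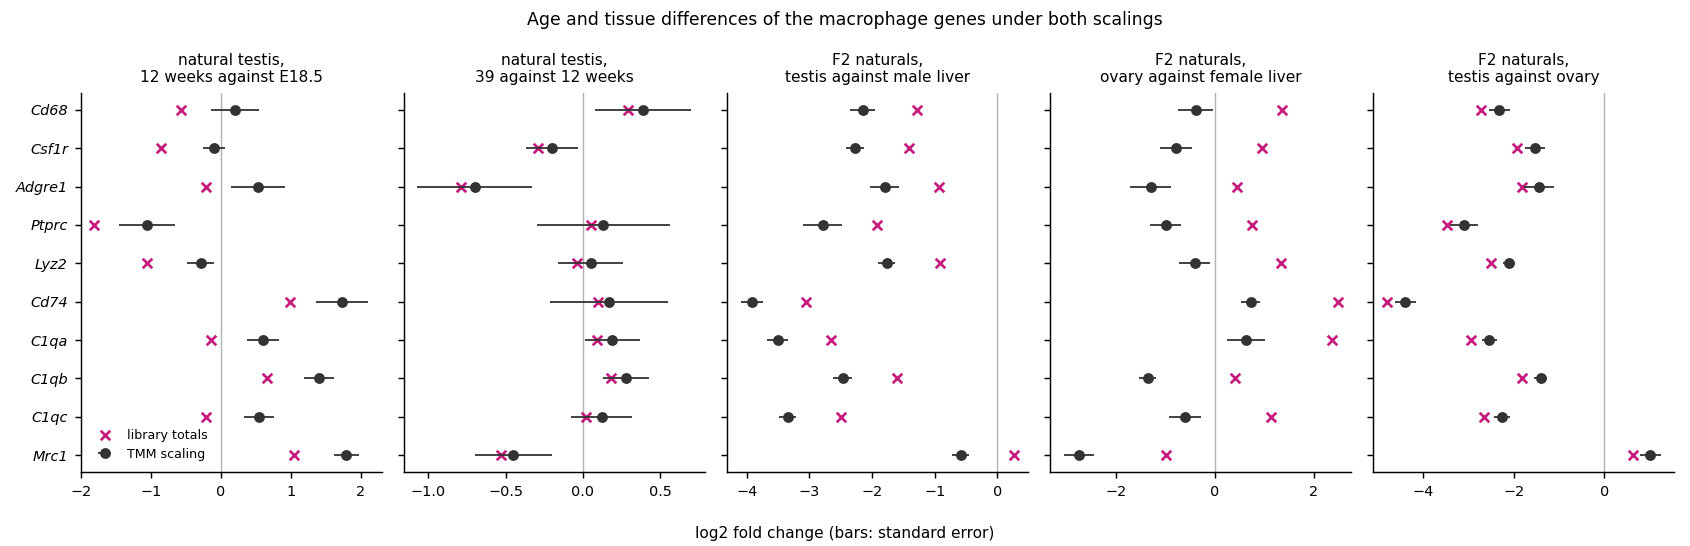
Log2 fold changes of the 10 members in naturals, for the comparisons of testis ages and of F2 tissues. Points with standard errors are on TMM scaling, and crosses are on library totals. On TMM scaling Mrc1 (1.79) and C1qb (1.40) stand to the right from E18.5 to 12 weeks, and the values from 12 to 39 weeks lie around 0. Cd74 in testis reaches -3.92 against male liver and -4.39 against ovary.

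In F2 naturals, testis held less of the members than male liver or ovary. All 10 were called lower in testis than in male liver, where 86.7% of all genes were called, 31.3% lower. The median log2 fold change was -2.37 over the members and 1.25 over all genes. Cd74 was 15.2-fold lower (-3.92 ± 0.18, adjusted p = 5.53e-11), C1qa 11.4-fold (-3.51 ± 0.17, adjusted p = 7.84e-11) and C1qc 10.2-fold. Cd68, Csf1r, Adgre1, Lyz2, C1qb and Ptprc were 3.42-fold to 6.91-fold lower. Mrc1 differed least. It was at 28.33, 25.46, 21.34, 24.76 and 24.27 CPM in testis and at 13.43, 20.44, 15.95, 17.52 and 24.69 CPM in male liver, each scaled in its own table. The joint fit placed testis lower (-0.59 ± 0.14, adjusted p = 0.00146), library totals placed it higher (0.27), and DESeq2 did not call it (-0.22, adjusted p = 0.18). The other 9 members were lower in testis on both scalings, from -0.91 to -3.06 on library totals.

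Against the ovary, 9 members were lower in testis and Mrc1 was higher, again all 10 called, where 81.9% of all genes were called (45.6% higher, 36.2% lower). Cd74 was 21-fold lower (-4.39 ± 0.23, adjusted p = 6.11e-09), Ptprc 8.57-fold lower (-3.10), C1qa at -2.54 and Cd68 at -2.32. Mrc1 was 2.01-fold higher (1.01 ± 0.23, adjusted p = 0.00123). All 10 kept these directions on library totals, with Mrc1 at 0.63. With the trend of GC content taken out of each library, Mrc1 was at 0.14 (adjusted p = 0.479) and lost its call.

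The ovary and the female liver were closer in these genes. Of the 10, 6 were called, 1 higher and 5 lower in ovary, where 72.1% of all genes were called (42.6% higher, 29.5% lower). Mrc1, 6.73-fold lower in ovary (-2.75 ± 0.31, adjusted p = 3.99e-06), was at 23.69, 13.66, 12.44 and 13.02 CPM in ovaries and at 38.97, 54.15, 21.44, 23.95 and 40.37 CPM in female livers. C1qb was lower (-1.36 ± 0.17, adjusted p = 1.29e-05), as were Csf1r (-0.79), Adgre1 (-1.30) and Ptprc (adjusted p = 0.00998). Cd74 was higher in ovary (0.72 ± 0.20, adjusted p = 0.00581). Of these directions, those of Mrc1 and Cd74 (2.48) also held on library totals, while Csf1r, Adgre1, Ptprc and C1qb turned positive there. Cd74 turned to -0.57 (adjusted p = 0.019) with the trend of GC content removed and lost its call without the female livers Natural 1 and 3 (0.54, adjusted p = 0.0667). DESeq2 did not call Csf1r (-0.61, adjusted p = 0.124). The 10 most abundant genes held 17.1% to 43.5% of the counts in livers and 6.73% to 9.14% in ovaries.

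The defining markers of Kupffer cells separated the liver from the gonads. Summed over the 5 markers, natural male livers held 103 to 185 CPM and natural female livers 116 to 240 CPM, whereas ovaries held 0.687 to 3.4 CPM with Clec4f at 0, and adult natural testes 0.83 to 8.33 CPM. Receptors followed the members only in part. Of 19 receptors tested between testis and male liver, 14 were called lower in testis and 3 higher, where 86.7% of all genes were called, 31.3% lower. Among the higher were Fcgr3 (3.02 ± 0.14, adjusted p = 5.99e-11) and Axl (0.88, adjusted p = 1.78e-06). Between testis and ovary, 45.6% of all genes were called higher in testis and 36.2% lower. There 14 of 20 receptors were lower and 4 higher, with Fcgr3 at 2.62 (adjusted p = 1.19e-08). Of 6 MHC class II genes 4 were lower, with H2-Eb1 at -3.65 (adjusted p = 1.23e-08) and H2-Aa at -4.19 (adjusted p = 6.86e-08), and 1 higher, H2-DMa at 1.06 (adjusted p = 1.71e-05). These tissue comparisons share the F2 natural testes, ovaries and livers with each other and with the comparisons of IVF.

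In testes and ovaries no member was called between IVF and naturals. In F1 testis at the successive ages, and in F2 testis and then F2 ovary, edgeR called 0 of 10 each time, where it called 0.221%, 0.199%, 0.00996%, 0.914% and 0% of all genes. Members under an unadjusted p of 0.05 numbered 2, 1, 0, 1 and 3, beside 17.7%, 12.9%, 10.5%, 13.9% and 10.6% of all genes. DESeq2 called 1 member, Cd74 in F2 testis, and none in the other 4 tables.

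In E18.5 testis Csf1r was at 25.88, 19.25, 20.25 and 22.59 CPM in naturals, and the 6 IVF testes ranged from 16.07 through a median of 18 to 19.32 CPM. The lowest natural lay just inside the IVF range, and the difference of -0.29 ± 0.12 (log2) did not pass adjustment (unadjusted p = 0.0343, adjusted p = 0.241). C1qc ranged from 7.598 to 8.602 CPM in naturals and from 4.442 to 7.11 CPM in IVF, without overlap but with an adjusted p of 0.387. Cd74 had the largest estimate, -0.74 ± 0.47 (adjusted p = 0.433), on 6 to 35 counts a library.

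In 12-week testis C1qa was at 8.835, 11.82, 8.367, 7.982 and 8.82 CPM in naturals and at 9.363, 13.17, 15.31, 9.206 and 15.76 CPM in IVF. The groups overlapped, and 0.45 ± 0.17 (log2) did not pass adjustment (unadjusted p = 0.015, adjusted p = 0.251). The other members lay between -0.21 (Mrc1) and 0.22. At 39 weeks the estimates lay between -0.03 and 0.59, the highest for Lyz2 (0.59 ± 0.34, adjusted p = 0.577). The library 39-week IVF 2 was low in several members, with Csf1r at 2.747 CPM where the other 5 IVF testes were at 9.908 to 12.29 CPM, C1qc at 3.139 against 8.808 to 11.47 CPM and Lyz2 at 5.382 against 14.05 to 26.86 CPM. It was not low in Mrc1, at 26.18 CPM, the highest of its group. Leaving it out brought no member past the threshold.

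In F2 testis Cd74 came nearest to a call. It was at 3.609, 4.606, 6.559, 7.567 and 6.243 CPM in naturals, and in the 7 IVF testes it ranged from 6.482 through a median of 10.42 to 15.12 CPM. Of the IVF testes 5 lay above all naturals and the other 2 within their range. The log2 fold change was 0.86 ± 0.23 (1.82-fold, unadjusted p = 0.00193, adjusted p = 0.0777). DESeq2 called it (0.86, adjusted p = 0.00319), and edgeR did so without the library IVF 2 or IVF 6. With near-identical libraries summed it was at 0.70 (adjusted p = 0.241), also not called. H2-Ab1, a chain of the MHC class II molecule that Cd74 escorts, went the other way, from a mean of 18.47 CPM to 5.676 CPM (-1.70 ± 0.22, adjusted p = 0.00141), and was the only gene of the other macrophage lists called in this table. In F1 testes, where it was not called, H2-Ab1 was at means of 3.12 CPM in naturals and 2.556 CPM in IVF at E18.5, 19.81 and 33.6 CPM at 12 weeks, and 7.097 and 27.39 CPM at 39 weeks.

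In F2 ovary 9 of the 10 estimates lay below 0, with a median of -0.29 (all genes -0.01, of which 47.7% lay above 0), and none was called. Adgre1 was at 11.26, 6.017, 7.207 and 4.537 CPM in naturals and at 4.892, 3.313, 2.427, 3.389 and 4.006 CPM in IVF, overlapping at one library of each group (-1.02 ± 0.29, unadjusted p = 0.00481, adjusted p = 0.349). C1qa was at 60.56, 55.33, 63.74 and 43.48 CPM in naturals and at 45.73, 41.82, 38.38, 38.94 and 48.77 CPM in IVF (-0.39 ± 0.12, unadjusted p = 0.00737, adjusted p = 0.38). Cd68 had an unadjusted p of 0.0261 (adjusted p = 0.428). Cd74, the most abundant member per kilobase in this tissue, was the only one above 0 (0.22).

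**Figure D3:**
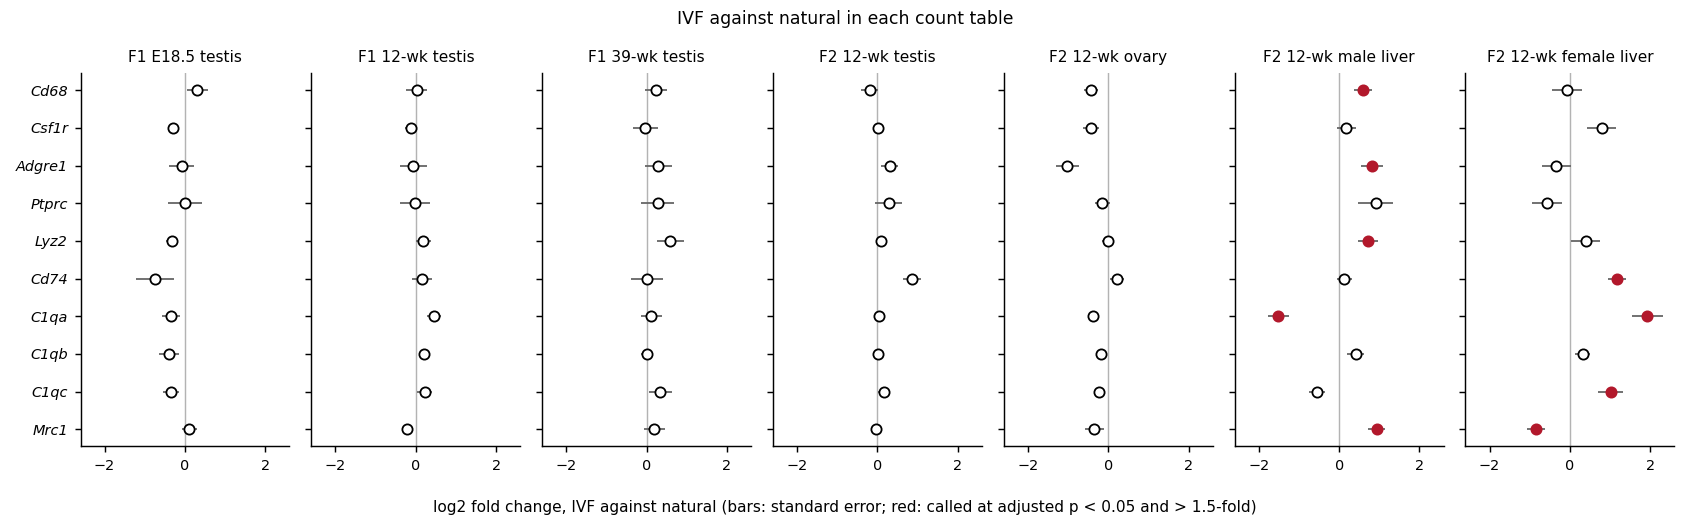
Log2 fold changes of the 10 members in IVF against naturals with their standard errors in the 7 tables, with called values marked. All 5 gonad tables lack a called member, while in livers C1qa reaches -1.51 in males and 1.93 in females and Mrc1 0.94 and -0.84.

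In F2 male liver, Mrc1, Adgre1, Lyz2 and Cd68 were higher in IVF and C1qa was lower, 5 of 10 called in a table in which 31.1% of all genes were called, 13.9% higher and 17.2% lower. C1qa was at 41.59, 45.4, 41.93, 27.01 and 51.06 CPM in naturals and at 13.05, 6.208, 14.44, 23.2 and 12.38 CPM in IVF. Every IVF liver lay below every natural one, 2.84-fold lower (-1.51 ± 0.26, adjusted p = 5.52e-04). C1qc was at 31.37, 29.68, 28.45, 22.24 and 31.24 CPM in naturals and at 19.19, 12.42, 19.25, 26.2 and 18.18 CPM in IVF (-0.55 ± 0.19, adjusted p = 0.0399), 1.46-fold and so not called. C1qb was not called and its estimate had the opposite sign (0.41 ± 0.22, adjusted p = 0.159), with 19.56 to 31.56 CPM in naturals and 22.35 to 50.1 CPM in IVF.

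Mrc1 rose 1.92-fold (0.94 ± 0.21, adjusted p = 0.00315), from 13.43, 20.44, 15.95, 17.52 and 24.69 CPM to 34.76, 48.42, 19.25, 37 and 31.06 CPM. The IVF library of 19.25 CPM, with 8 counts of Mrc1, lay within the natural range. Adgre1 rose 1.77-fold (0.82 ± 0.27, adjusted p = 0.0267) and Cd68 1.52-fold (0.60 ± 0.22, adjusted p = 0.0451), both without overlap between groups, and Lyz2 1.64-fold (0.72 ± 0.24, adjusted p = 0.0295). Cd68 sat at both thresholds and lost its call with DESeq2 (0.55, adjusted p = 0.0482), and on library totals neither Cd68 (0.30), Adgre1 (0.53) nor Lyz2 (0.42) was called. Ptprc was uncounted in the smallest library, IVF 3, whose depth allows a level of up to 7.22 CPM on the same scale, and it was not called (0.91 ± 0.43, adjusted p = 0.115). Without the small libraries IVF 2 and 3, an alternative chosen after the data were seen, 6 members were called.

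Related genes were also called in male liver, where 13.9% of all genes were called higher and 17.2% lower. Their values keep the trend of GC content (r = -0.57 over all genes). Of 16 macrophage receptors tested in male liver, 6 were higher in IVF and none lower (median 0.51, all genes -0.01). Cd163, the haemoglobin scavenger receptor, rose by 1.31 ± 0.30 (log2, adjusted p = 0.00358) and Fcer1g, a signalling chain of Fc receptors, by 1.19 ± 0.28 (adjusted p = 0.00458). Of 5 Kupffer cell markers 2 were higher, Timd4, which binds dying cells, by 1.86 (adjusted p = 3.44e-04) and Vsig4, a complement receptor, by 1.04 (adjusted p = 0.0047), while their summed level overlapped, 103 to 185 CPM in naturals and 101 to 220 CPM in IVF. Of 9 lysosomal genes, Lamp2 (1.01, adjusted p = 0.0023) and Ctss (1.05, adjusted p = 0.00631) rose and Ctsd fell by 0.85 (adjusted p = 0.0119). Spi1, which encodes PU.1, was the only one of 7 regulators called (-1.21, adjusted p = 0.0331), C2 the only one of 8 complement genes (-0.83, adjusted p = 0.0107), and none of 5 MHC class II genes was called by edgeR, nor did any reach an unadjusted p under 0.05.

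In F2 female liver C1qa, Cd74 and C1qc were higher in IVF and Mrc1 lower, 4 of 10 called where 39.4% of all genes were called, 21.6% higher and 17.8% lower. C1qa was at 10.35, 27.64, 5.077, 7.562 and 8.325 CPM in naturals, and the 6 IVF livers ranged from 30.69 through a median of 47.35 to 59.92 CPM. All IVF livers lay above all naturals, 3.8-fold (1.93 ± 0.38, adjusted p = 0.00121). Cd74 was at 29.53, 31.01, 22.28, 30.4 and 46.14 CPM in naturals and from 47.99 through 64.57 to 115.5 CPM in IVF, also without overlap and 2.25-fold higher (1.17 ± 0.22, adjusted p = 5.19e-04).

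C1qc was at 32.57, 26.99, 8.743, 12.29 and 11.81 CPM in naturals and from 26.73 through 40.12 to 43.4 CPM in IVF. It was 2.01-fold higher with overlap (1.01 ± 0.31, adjusted p = 0.0154). C1qb was again not called (0.32 ± 0.19, adjusted p = 0.168), with 22.69 to 38.36 CPM in naturals and 26.82 to 50.84 CPM in IVF. Mrc1 was at 38.97, 54.15, 21.44, 23.95 and 40.37 CPM in naturals and from 12.95 through 20.25 to 26.13 CPM in IVF, 1.79-fold lower (-0.84 ± 0.23, adjusted p = 0.00628), and on library totals its difference of -0.54 was not called (adjusted p = 0.0822). Csf1r was not called (0.79 ± 0.36, adjusted p = 0.0871) by edgeR and was called by DESeq2 (0.80, adjusted p = 0.0371).

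Related genes were called in both directions, in a table where 21.6% of all genes were called higher and 17.8% lower. Their values too keep the trend of GC content. Of 8 regulators 5 were higher and 1 lower (median 0.78, all genes -0.01), with Cebpb at 1.16 (adjusted p = 0.00743), Spi1 at 1.11 (adjusted p = 0.0134) and Maf at -0.97 (adjusted p = 6.72e-05). Of 6 MHC class II genes 2 were higher, H2-Eb1 (1.27, adjusted p = 4.89e-05) and H2-Aa (0.94, adjusted p = 0.0211), and of 8 complement genes 3 were higher, among them Cfb (0.77, adjusted p = 3.40e-04) and C4b (1.34, adjusted p = 4.79e-04). Of 17 receptors 3 were higher and 4 lower (median -0.05). The endotoxin receptor Cd14 rose by 1.94 (adjusted p = 0.00245) and Tlr2, a receptor for bacterial lipoproteins, by 1.11 (adjusted p = 0.0128), and Msr1 fell by 1.08 (adjusted p = 6.31e-04) and Mertk, another receptor for dying cells, by 0.75 (adjusted p = 9.74e-04). Of 9 lysosomal genes, Ctsd was at 1.07 (adjusted p = 3.20e-05) and Lamp2 at -1.25 (adjusted p = 3.33e-05), and of the Kupffer cell markers Timd4 alone was called (-1.49, adjusted p = 0.00118). Summed Kupffer cell markers were at 116 to 240 CPM in naturals and 111 to 228 CPM in IVF. Summed hepatocyte markers did not overlap, at 158873 to 245304 CPM in naturals and 108770 to 129541 CPM in IVF, and their part in the members' differences was not tested. In male livers they did overlap, at 70804 to 95938 and 82625 to 137846 CPM.

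In one fit of all 21 livers, the effect of IVF differed between the sexes for 6 of the 10 members, where 52.9% of all genes were called (27.7% with a higher effect in females, 25.2% lower). The difference, female minus male, was 3.44 ± 0.50 for C1qa (log2, adjusted p = 6.67e-06), 1.56 ± 0.37 for C1qc (adjusted p = 9.71e-04) and 1.04 ± 0.30 for Cd74 (adjusted p = 0.00488). It was -1.77 ± 0.32 for Mrc1 (adjusted p = 4.68e-05), -1.47 ± 0.60 for Ptprc (adjusted p = 0.0411) and -1.15 ± 0.47 for Adgre1 (adjusted p = 0.0385). DESeq2 called neither Ptprc (adjusted p = 0.102) nor Adgre1 (adjusted p = 0.0709). Without the 4 livers of fewest counts, an alternative chosen after the data were seen, Cd74 was at 0.66 and not called (adjusted p = 0.0989). C1qb, the neighbour of C1qa and C1qc, was at -0.08 ± 0.30 and not called (adjusted p = 0.845).

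The base composition of the libraries moved with conception in the livers, in opposite directions in the sexes. Weighted by counts, the transcripts held 50.2% to 50.4% G and C in male naturals and 48.1% to 49.4% in male IVF, against 48.5% to 49.1% in female naturals and 50.1% to 50.8% in female IVF. The log2 fold changes of the members moved with the GC content of their transcripts, with r = -0.79 in males and 0.87 in females over the 10 genes. Over all genes with a GC value the correlations were -0.57 (11715 genes) and 0.69 (12206 genes). These are descriptions across genes, which share the libraries and their depth. Of the windows printed above, C1qa, rich in capitals, was lower in male IVF and higher in female IVF, and Mrc1, poor in them, was the reverse. The windows of C1qb and Ptprc are nearly as rich and as poor. C1qb was at 0.41 ± 0.22 in males and 0.32 ± 0.19 in females. Ptprc was at 0.91 ± 0.43 and -0.57 ± 0.38, with the signs of Mrc1. Neither gene was called in either sex, and how far base composition set any of these values was not tested. In E18.5 testis r was -0.60 over the members (-0.29 over all genes), with libraries at 50.2% to 50.4% in naturals and 49.8% to 50% in IVF, and in F2 testis and ovary it was 0.06 and 0.21. In F1 testis it was 0.70 at 12 weeks (0.15 over all genes) and -0.45 at 39 weeks (-0.36), in tables without a called member.

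With the trend of GC content taken out of each library, 4 members were called in male liver, all higher: C1qb (1.29, adjusted p = 0.00307), Cd74 (0.99, adjusted p = 0.00788), Cd68 (0.98, adjusted p = 0.0228) and Mrc1 (0.64, adjusted p = 0.0397). C1qa was then at -0.52 (adjusted p = 0.203). In female liver C1qa alone was called (0.90, adjusted p = 0.0415), while Cd74 was at 0.33 (adjusted p = 0.356), C1qc at 0.08 (adjusted p = 0.881) and Mrc1 at -0.35 (adjusted p = 0.28). The calls over all genes went to 1733 from 3725 in males and to 2189 from 4935 in females. For the difference between sexes, C1qa was at 1.41 (adjusted p = 0.0112) and Mrc1 at -1.03, still called, and C1qc and Cd74 turned to -0.27 and -0.70. C1qb came to -1.92 (adjusted p = 6.69e-05) and Cd68 to -1.50 (adjusted p = 0.021), both now called, and Adgre1 (-0.88, adjusted p = 0.166) and Ptprc (-0.65, adjusted p = 0.418) lost their calls.

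**Figure D4:**
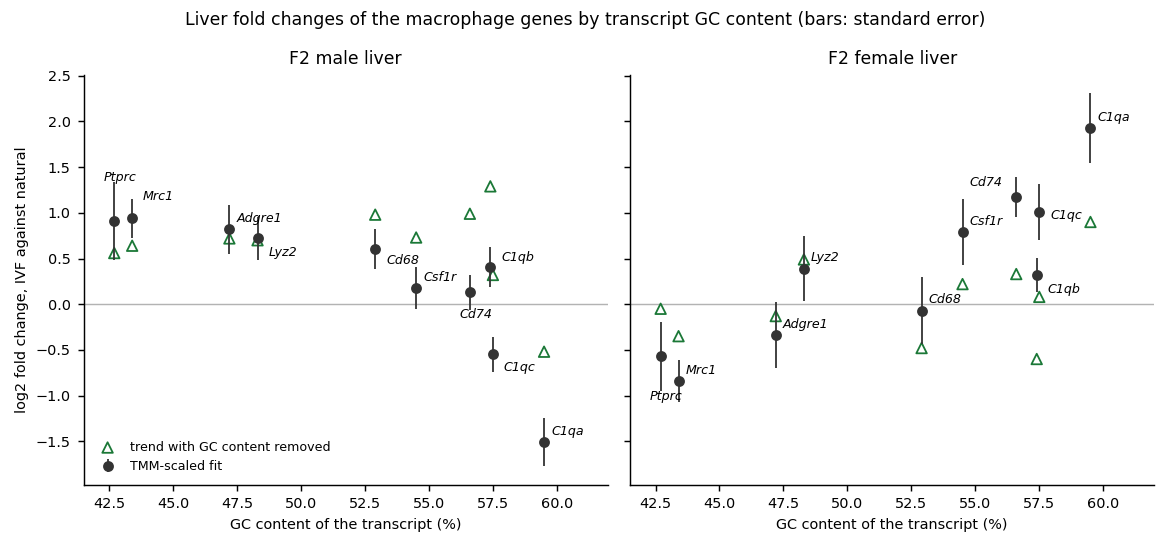
Log2 fold change of each member in IVF against naturals (vertical) by the GC content of its transcript in percent (horizontal), for male and female F2 livers. Filled points with standard errors are the TMM-scaled fit, described next, and open triangles have the trend of GC content removed. The points fall from Mrc1 (0.94) to C1qa (-1.51) in males and rise from Mrc1 (-0.84) to C1qa (1.93) in females, with C1qb at 0.41 and 0.32.

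After C1qa had been seen to be called in livers and C1qb not, their counts were set against each other within each library, which needs no scaling between libraries. These tests were therefore chosen from the same values and are not independent support for that difference. The ratio of C1qa to C1qb counts was 1.32, 1.56, 1.64, 1.38 and 1.71 in natural male livers and 0.419, 0.278, 0.6, 0.463 and 0.288 in IVF male livers. In female livers it was 0.27, 0.771, 0.188, 0.333 and 0.308 in naturals, and the IVF livers ranged from 0.888 through 1.25 to 1.72. Some ratios rest on few counts. C1qa and C1qb had 10 and 36 counts in male IVF 2, 6 and 10 in male IVF 3, and 18 and 96 in female Natural 3. The groups parted in both sexes, in opposite directions. The mean log2 ratio differed by -1.91 in males (exact two-sided permutation, p = 0.00794, the smallest that 5 against 5 allow, and adjusted p = 0.0303 over 14 tests of C1q ratios) and by 1.88 in females (exact p = 0.00433, adjusted p = 0.0303, the smallest that 5 against 6 allow). C1qc to C1qb differed by -0.88 in males (exact p = 0.00794, adjusted p = 0.0303) and 0.84 in females (exact p = 0.00866, adjusted p = 0.0303).

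In the gonads the groups overlapped in this ratio. C1qa to C1qb was 1.02 to 1.57 in natural and 1.19 to 1.69 in IVF testes at E18.5, 0.658 to 1.06 and 0.667 to 1.18 at 12 weeks, and 0.614 to 0.822 and 0.339 to 1.12 at 39 weeks. In F2 testes it was 0.568 to 1.01 and 0.648 to 0.887, and in F2 ovaries 1.46 to 1.7 and 1.16 to 1.56. The smallest adjusted p in gonads was 0.178, in ovary (log2 difference -0.19, exact permutation p = 0.0635). Set beside base composition, the 10 liver libraries of male IVF and female naturals held 48.1% to 49.4% G and C and ratios of 0.188 to 0.771, and the 11 of male naturals and female IVF held 50.1% to 50.8% and ratios of 0.888 to 1.72. How far base composition set the ratio was not tested.

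**Figure D5:**
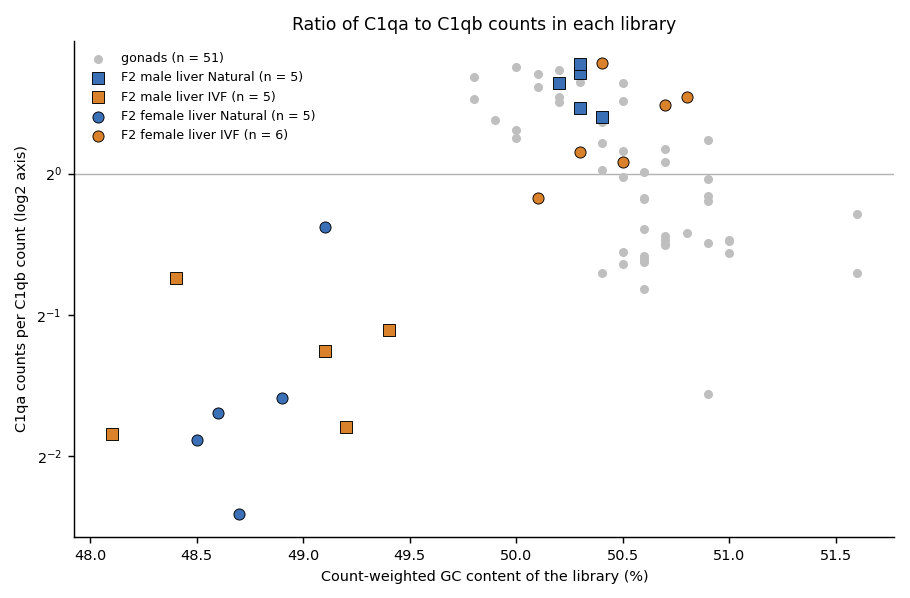
Ratio of C1qa to C1qb counts on a log axis (vertical) by the count-weighted GC content of the library (horizontal), with 1 point a library. Livers are marked by sex and conception, and all gonad libraries are grey, without their groups. Livers part at about 1 in both sexes and in opposite directions, male naturals 1.32 to 1.71 against 0.278 to 0.6 in IVF and female naturals 0.188 to 0.771 against 0.888 to 1.72.

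Within groups, 4 of the members correlated with each other at 0.5 or more in the gonads. Over the 51 gonad libraries, with each gene centred on its group, Csf1r correlated most with C1qa (r = 0.71), Lyz2 (0.69) and C1qc (0.63), and C1qa with C1qc at 0.56. Of the 45 pairs of members, 6 reached 0.5, all among these 4 genes, and pairs with the others lay between -0.25 (C1qc and Mrc1) and 0.45 (Cd68 and Lyz2). These are descriptions across libraries, which share depth and base composition by table. Among them is 39-week IVF 2, with Csf1r at 2.747 CPM (9.908 to 12.29 CPM in the rest of its group) and C1qc at 3.139 CPM (8.808 to 11.47 CPM). The part of this single library in the correlations was not tested. Of 11947 other genes with a mean of 1 CPM or more in each gonad table, the 5 most like the mean of the members were Cybb (r = 0.75), which encodes a subunit of the phagocyte NADPH oxidase, the lysosomal protease gene Ctss (0.68), Hlf (0.64), Pcyox1 (0.64) and Stab1 (0.62), a scavenger receptor. In the 22 natural gonad libraries alone their values were 0.56 to 0.64, and none of these 5 was among the 5 most like the members there.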

How the data were processed

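RNA-Seq counts of 72 libraries were used, 7 tables with IVF and natural groups, and each library was grouped by its label. Group sizes follow the labels, and the methods (F1 testes) and the series' design text (female livers) give others. The authors made stranded mRNA libraries (KAPA) and deposited whole-number read counts per RefSeq gene, without normalization. The submitters' processing notes name Trimmomatic 0.32, STAR 2.3.0e, featureCounts 1.5.0, DESeq2 and mm10, with no roles given. Of the counts from 1 to 10, 60.8% to 94.6% were even in a library, so both mates of a pair appear to be counted and independent fragments are fewer than counts. Intervals and floors (3 counts a library) cover counting error alone.

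Within each comparison edgeR 4.0.16 (R 4.3.3, limma 3.58.1) was run after filterByExpr by group, with TMM and robust quasi-likelihood fits and Benjamini-Hochberg adjustment over all genes tested. Tables were scaled separately for the levels and jointly where their libraries were compared. The labels name no sequencing run. Each age, tissue and generation has its own table, and so has each sex in liver. These and any other difference between tables therefore cannot be told apart in those comparisons. C1q ratios of single libraries are those of the counts as they stand. Log2 ratios with 1 added to each count were tested by two-sided exact permutation (scipy 1.17.1). Correlations between genes used log2(CPM + 0.5). GC content came from GENCODE M21 transcripts on mm10, for 24383 of 25239 and 27306 of 35976 genes, and its trend was removed with a spline of 5 degrees of freedom. Sequences were read from the mm10 genome and RefSeq promoter entries. On simulated counts with changes of 2-fold and 4-fold, 50.5% and 96.9% were recovered in male liver (11776 genes), with 5.92% false calls.

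The members and lists were chosen with earlier results of these data known. Named were all members, up to 2 called genes of smallest adjusted p in each direction from each other list, and the 5 genes most like the members in gonads. Clec4f and Lyz1 were named outside this rule. The alternatives were DESeq2 size factors, DESeq2 1.42.0, the replicate number as a block, a call without the fold limit, all genes kept, only genes with 10 counts or more in every library, halved counts, thinned counts, the GC trend removed, and each library left out in turn. Added after seeing the data were library totals, small libraries left out, near-identical libraries summed, the gene Rn45s left out, and the C1q ratio tests. The pairs 39-week Natural 1 and 2, F2 testis Natural 1 and 2, and F2 testis IVF 3 and 4 had chi-square values per gene of 3.04, 3.53 and 2.78, the nearest of all pairs within groups. They lay above counting error and were kept as separate samples.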

Additional observations from a re-analysis of the deposited data

Results flagged for a closer look

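Of 140 sets of values of a member in a group of 4 to 7 libraries, 13 held a library farther from the rest than Dixon's 95% limit allows, and chance alone gives about 1 in 20. In testes, these were Natural 2 at E18.5, with Cd74 at 5.12 CPM (the others at 1.994 to 2.25 CPM) and C1qc at 8.602 CPM (7.598 to 7.65 CPM), and at 12 weeks Natural 1 with Csf1r at 9.526 CPM (11.94 to 12.79 CPM) and Natural 2 with C1qa at 11.82 CPM (7.982 to 8.835 CPM). At 39 weeks they were Natural 4, with Cd68 at 5.815 CPM (2.784 to 3.276 CPM), and IVF 2, with Csf1r at 2.747 CPM (9.908 to 12.29 CPM) and C1qc at 3.139 CPM (8.808 to 11.47 CPM).

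In ovary, Natural 1 held Mrc1 at 23.69 CPM (12.44 to 13.66 CPM) and Natural 2 held Lyz2 at 50.5 CPM (58.48 to 59.96 CPM). In male liver, Natural 5 held Ptprc at 5.207 CPM (2.002 to 2.88 CPM). In female liver a single library, Natural 2, held Adgre1 at 12.61 CPM (3.385 to 5.48 CPM), Lyz2 at 50.93 CPM (15.52 to 25.57 CPM) and C1qa at 27.64 CPM (5.077 to 10.35 CPM). Without it, 6 members were called in female liver in place of 4.

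The effect of IVF differed between female and male livers, by a sex by conception term in edgeR's quasi-likelihood test, for C1qa (3.44 on the log2 scale, female minus male), C1qc (1.56), Cd74 (1.04), Mrc1 (-1.77), Ptprc (-1.47) and Adgre1 (-1.15). Their adjusted p-values stand in the report, and 52.9% of all genes were called in this fit. With the trend of GC content removed, C1qa (1.41) and Mrc1 (-1.03) kept their calls. C1qc (-0.27) and Cd74 (-0.70) then changed sign, and Ptprc (-0.65) and Adgre1 (-0.88) were not called.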

How the results depend on the processing

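In the gonads, with 0 members called between IVF and naturals, the number moved only in F2 testis, to 1 with DESeq2 and 1 with the replicate block, and to 0 to 1 with a library left out (1 without IVF 2 or IVF 6). In male liver, with 5 called, 3 were called on library totals (C1qa and Mrc1 of the 5, and C1qc), 3 with no filter, 2 with the replicate block, 2 in thinned counts (6 tested) and 0 with at least 10 counts in every library (3 tested). With a library left out it was 2 to 5, with 2 without Natural 1 or Natural 2 and 3 without Natural 3, Natural 4, IVF 1 or IVF 4. Of 4 in female liver, 1 was called with the GC trend removed, and 4 to 6 with a library left out. Between sexes, of 6, 1 was called with at least 10 counts in every library (3 tested), and 4 to 6 with a library left out. From E18.5 to 12 weeks it was 3 to 6, for testis against male liver 9 to 10, and for ovary against female liver 5 to 7. On library totals C1qa from E18.5 to 12 weeks was -0.15 and Mrc1 in testis against male liver 0.27, and in ovary against female liver Cd68 was 1.36, Csf1r 0.96, Adgre1 0.44, Ptprc 0.75, Lyz2 1.33, C1qb 0.40 and C1qc 1.14, all reversed. With the GC trend removed, Cd74 (-0.57) and C1qa (-1.05) reversed in ovary against female liver, and Cd74 (-0.70) and C1qc (-0.27) between sexes. Causes were not tested. Of all values of single members under these alternatives, 29 gained a call, 45 lost it and 13 reversed, with a call before or after. The other 1352 kept their call or lack of one, but not always their direction. A sign change between uncalled values was counted as kept, as for C1qc in male liver (-0.55, and 0.32 with the GC trend removed). Libraries with the same replicate number did not deviate together (r from -0.23 to 0.30 over the pairs), so the numbers do not pair the samples, and the block was not fitted between sexes. Thin libraries limit the livers: 3 counts in male IVF 3 are 7.22 CPM on the scale of the levels, above those of Adgre1 and Ptprc in all natural male livers.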
